A study of Mus musculus with 10 samples.

Results

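The EGF-like growth factors and the receptors they bind were followed in 10 RNA-seq libraries of mouse ovary. They were chosen as the rows of the deposited tables named Areg, Ereg, Btc, Hbegf, Tgfa, Nrg1, Egfr, Erbb2 and Erbb3. Of these 9 genes, 8 were measured among the 24306 genes of the count table: 5 ligands and 3 receptors. Areg is not analysed here.

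Ovaries came from mice 6 weeks old on a mixed C57BL/6; 129 background, and polyA RNA was sequenced from whole gonads. The Dmrt1 het Rar mutants (n = 2) were Dmrt1 fl/+ and homozygous for floxed Rara, Rarb and Rarg (f/f), with Sf1-Cre. The Rar mutants (n = 3) were Dmrt1 +/+ with the same floxed receptor genes and Sf1-Cre, and the controls (n = 5) were Dmrt1 +/+ with those floxed genes and no Cre. Sf1-Cre takes its expression from the Nr5a1 promoter, on in gonadal somatic cells and other steroid-making tissue, so oocytes keep their receptor genes. Rara, Rarb and Rarg encode the nuclear receptors for retinoic acid, and Dmrt1 encodes a regulator of gonadal sex. The study's title puts the question of what the somatic ovary needs retinoic acid signalling for. Nothing in the labels says whether libraries came from separate animals, so p-values measure the spread between libraries, which may be in part technical.

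EGF-like ligands are made as membrane-bound precursors and are cut free by metalloproteases of the ADAM family. Amphiregulin, epiregulin and betacellulin are known in the mouse ovary as the relay of luteinising hormone: granulosa cells of a preovulatory follicle release them, EGFR on cumulus and granulosa cells binds them, and the oocyte resumes meiosis while the cumulus lays down its matrix. EGFR works in pairs with itself or with ERBB2, which has no ligand of its own. ERBB3 has little kinase activity, binds neuregulins and signals through a partner such as ERBB2.

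Libraries held 21064856 to 25920131 counts. A count of 0 allowed up to 3 counts, or 0.118 to 0.137 CPM (counts scaled by library size), by counting error only. Rarg averaged 21.2 ± 1.116 CPM (SD, n = 2) in Dmrt1 het Rar mutants, 17.2 ± 2.24 CPM (n = 3) in Rar mutants and 29.5 ± 3.58 CPM (n = 5) in controls, and neither mutant group overlapped the controls. Rara and Rarb overlapped between groups, and Dmrt1 had 5 counts in Dmrt1 het Rar mutant 2 and 0 in the other libraries, too few counts for a loss to be seen. Whole-gene counts do not separate deleted exons from the rest of a transcript. All 8 granulosa cell markers and all 8 oocyte markers were detected in every library labelled ovary. The libraries stood apart in ways that the genotype does not give. The 4 with numbers under 7800 in their titles (both Dmrt1 het Rar mutants, Rar mutant 1 and control 1) lay from -39.9 to -30.2 along principal component 1 of log2 CPM, which held 38.2% of its variance, and the other 6 lay from 1.5 to 45.8. Rar mutant 3 stood alone along component 2 (20% of the variance), at 52.7. Summed adrenal cortex markers (5 genes) reached 299 and 274 CPM in Rar mutants 2 and 3. They summed to 3.31 CPM in Rar mutant 1, 1.01 to 1.14 CPM in Dmrt1 het Rar mutants and 0.655 to 1.23 CPM in controls. Most of the high sums came from Akr1b7, with a median of 248 CPM and a highest value of 261 CPM in Rar mutants. Cyp11b1 averaged 21.6 CPM in Rar mutants and 0.242 CPM in controls. Cyp11b2, Mc2r and Cyp21a1 reached at most 1.04, 0.354 and 0.0415 CPM in Rar mutants. Cyp11b1 and Cyp11b2 lay above all controls in every Rar mutant, and Akr1b7, Mc2r and Cyp21a1 overlapped the controls. Fold changes that rest on Rar mutant 3 are given with and without it.

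In control ovaries the family was led by receptors and by the ligand Tgfa. Per transcript length, as FPKM, control means were 6.64 ± 0.98 for Erbb2, 5.14 ± 1.96 for Tgfa, 4.69 ± 0.755 for Egfr and 3.30 ± 1.75 for Hbegf (SD, n = 5). Neighbours in this order of levels overlapped in their control ranges. Erbb3 followed at 0.954 ± 0.197 FPKM, with no overlap with Hbegf above it or Btc below it. The lowest levels were those of Btc (0.375 ± 0.0735 FPKM), Ereg (0.374 ± 0.218 FPKM) and Nrg1 (0.180 ± 0.0143 FPKM), and each overlapped its neighbour. Ereg and Btc, the ligands of the ovulatory relay, were thus near the bottom of the family in these control ovaries. The stage of the oestrous cycle was not among the labels used here.

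Ereg encodes epiregulin, a ligand of EGFR and ERBB4. It had 1.05 and 0.702 CPM in the 2 Dmrt1 het Rar mutants, 1.73, 10.5 and 557 CPM in Rar mutants 1, 2 and 3, and 1.80, 2.82, 0.687, 1.77 and 0.683 CPM in the 5 controls. Rar mutant 3 was far above every other library, Rar mutant 2 was above all controls, and Rar mutant 1 and the Dmrt1 het Rar mutants lay among the controls. In counts these were 25 and 16 in Dmrt1 het Rar mutants, 44, 252 and 12974 in Rar mutants, and 15 to 71 in controls. The level in Rar mutant 3 was 359-fold the control mean and 197-fold the highest control. Among the 24306 genes ranked by FPKM from the top, Ereg stood at rank 715 in Rar mutant 3 and between ranks 11743 and 20217 in the other 9 libraries.

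Btc encodes betacellulin, which also binds EGFR and ERBB4. It had 2.14 and 1.93 CPM in the Dmrt1 het Rar mutants, 2.60, 5.69 and 241 CPM in Rar mutants 1, 2 and 3, and 1.43, 2.19, 1.37, 1.81 and 1.73 CPM in the controls. All 3 Rar mutants lay above all 5 controls, in the same order of libraries as Ereg, and both Dmrt1 het Rar mutants lay within the control range. Btc in Rar mutant 3 was 141-fold the control mean and 110-fold the highest control, at rank 1553 by FPKM. Erythroid genes, which go with blood in the tissue, were also highest in Rar mutants 3 and 2, with summed levels of 2706 and 2003 CPM, against 371 to 593 CPM in Dmrt1 het Rar mutants, 470 CPM in Rar mutant 1 and 297 to 1635 CPM in controls. Control 3 held the 1635 CPM and had 0.687 CPM of Ereg and 1.37 CPM of Btc. The part of the adrenal cortex and erythroid markers, or of the cycle stage, in the Ereg and Btc levels was not tested. In bulk tissue, a change in the number of cells of a type and a change in RNA per cell cannot be told apart.

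**Figure D1:**
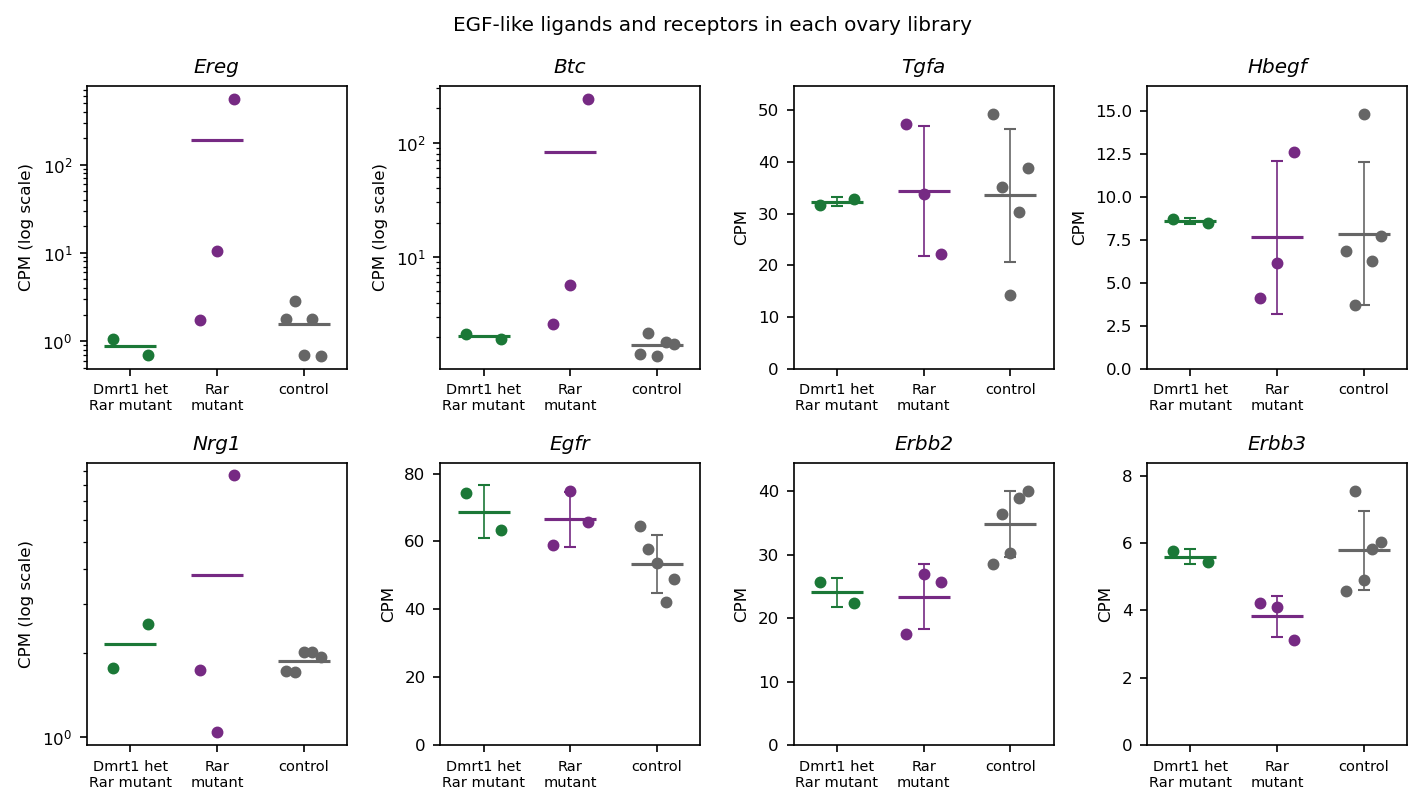
Level of each measured ligand and receptor in CPM, 1 point per library, for Dmrt1 het Rar mutants (n = 2), Rar mutants (n = 3) and controls (n = 5), with lines at group means and SD bars on the linear axes. Ereg, Btc and Nrg1 are on log axes; Rar mutant 3 is at 557, 241 and 8.67 CPM for them, and all 5 Rar-deleted libraries lie below all controls for Erbb2.

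None of the 8 measured members passed an adjusted p of 0.05 in Rar mutants against controls. That test called 0.00972% of all genes (2 of 20570) and reached an unadjusted p under 0.05 for 9.45% of them and for 4 of the 8 members, Ereg, Btc, Erbb2 and Erbb3. DESeq2 called 0 of the 6 members it gave a p for (Ereg and Btc had none) and limma voom with sample weights called 0 of 8, while over all genes they called 1.54% and 0.987%. Ereg had a log2 fold change of 6.92 (SE 1.41, edgeR adjusted p = 0.105) and Btc one of 5.60 (SE 1.15, adjusted p = 0.105). Both rested on Rar mutant 3. Without that library the log2 fold change was 1.94 for Ereg (SE 0.65, edgeR adjusted p = 0.514) and 1.26 for Btc (SE 0.31, adjusted p = 0.348). Rar mutant 1, the lowest of the 3 for both genes, decided the call: without it Ereg was at 7.50 (adjusted p = 0.00868) and Btc at 6.17 (adjusted p = 0.0106), in a fit that called 1.88% of all genes. In the 6 libraries with title numbers of 7800 or more, Ereg was at 7.56 (adjusted p = 0.0954) and Btc at 6.11 (adjusted p = 0.107). With the title number as a term they were at 6.40 (adjusted p = 0.145) and 5.19 (adjusted p = 0.121).

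Against controls, the Dmrt1 het Rar mutants had log2 fold changes of -0.83 for Ereg (SE 1.83, edgeR adjusted p = 0.826) and 0.25 for Btc (SE 1.34, adjusted p = 0.934). With the title number as a term Ereg turned to 1.24 (adjusted p = 0.949) and Btc was at 2.37 (adjusted p = 0.864). Against Rar mutants they were at -7.75 for Ereg (SE 2.25, adjusted p = 0.207) and -5.35 for Btc (SE 1.69, adjusted p = 0.216), and for both genes the groups did not overlap, as for 39.3% of all genes in that comparison. edgeR called 0 of 8 members there and 0% of all genes. An unadjusted p under 0.05 was reached by 2 of 8 members, Ereg and Btc, and by 16.9% of all genes. DESeq2 called 0 of the members it gave a p for, and limma voom called 0 members, while they called 2.59% and 21.4% of genes. In Rar mutants against controls, from the same DESeq2 fit, Ereg and Btc had no p. Without Rar mutant 1 Ereg alone was called (-8.33, adjusted p = 0.0478), in a fit that called 1.64% of genes, and without Rar mutant 3 Ereg was at -2.76 and Btc at -1.0004. With the title number as a term they were at -5.16 and -2.82, and with that term and no Rar mutant 3 at -2.16 and -0.61. The difference between the mutant groups cannot be told apart from the title numbers for most libraries, since both Dmrt1 het Rar mutants had numbers under 7800. Rar mutant 1 shared those low numbers, and its 1.73 CPM of Ereg and 2.60 CPM of Btc compare with 1.05 and 0.702 CPM of Ereg and 2.14 and 1.93 CPM of Btc in the Dmrt1 het Rar mutants.

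Ereg lies on chromosome 5 of GRCm38 (91074622 to 91093646, plus strand, ENSMUSG00000029377) and Btc on the opposite strand downstream of it (91357261 to 91402994, ENSMUSG00000082361). Of the genes around them in the count table, the antisense gene Gm19610, which overlaps the start of Ereg, had 0.841 and 0.482 CPM in Dmrt1 het Rar mutants, 0.748, 2.12 and 13.4 CPM in Rar mutants and 0.596 to 1.06 CPM in controls. It ordered the Rar mutants as Ereg did. The sources used here do not state whether counting used the strand, so reads of Gm19610 and of Ereg cannot be told apart where they overlap. Mthfd2l, a folate enzyme gene upstream of Ereg, had 14.2 and 16.1 CPM in Dmrt1 het Rar mutants, 16.4, 13.0 and 17.9 CPM in Rar mutants and 11.6 to 17.7 CPM in controls. Parm1, beyond Btc, had 86.2, 105 and 54.0 CPM in Rar mutants and 15.8 to 78.5 CPM in controls. Dmrt1 het Rar mutants had 28.2 and 30.6 CPM of it. Rar mutants 1 and 2 lay above every control for Parm1, and Rar mutant 3 was the lowest of the 3 Rar mutants. The log2 fold change in Rar mutants was 1.13 (edgeR adjusted p = 0.416). Cxcl1, a chemokine gene beyond Mthfd2l, had 4.54 and 3.60 CPM in Dmrt1 het Rar mutants, 0.591, 1.04 and 4.94 CPM in Rar mutants and 1.41 to 4.01 CPM in controls. Rar mutant 3 was the highest library for Cxcl1 and Mthfd2l too, close to the highest of the others, while Rar mutants 1 and 2 lay below every control for Cxcl1. The pseudogenes Trmt112-ps1 and Gm7832 had log2 fold changes in Rar mutants of 0.02 and 0.22.

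**Figure D2:**
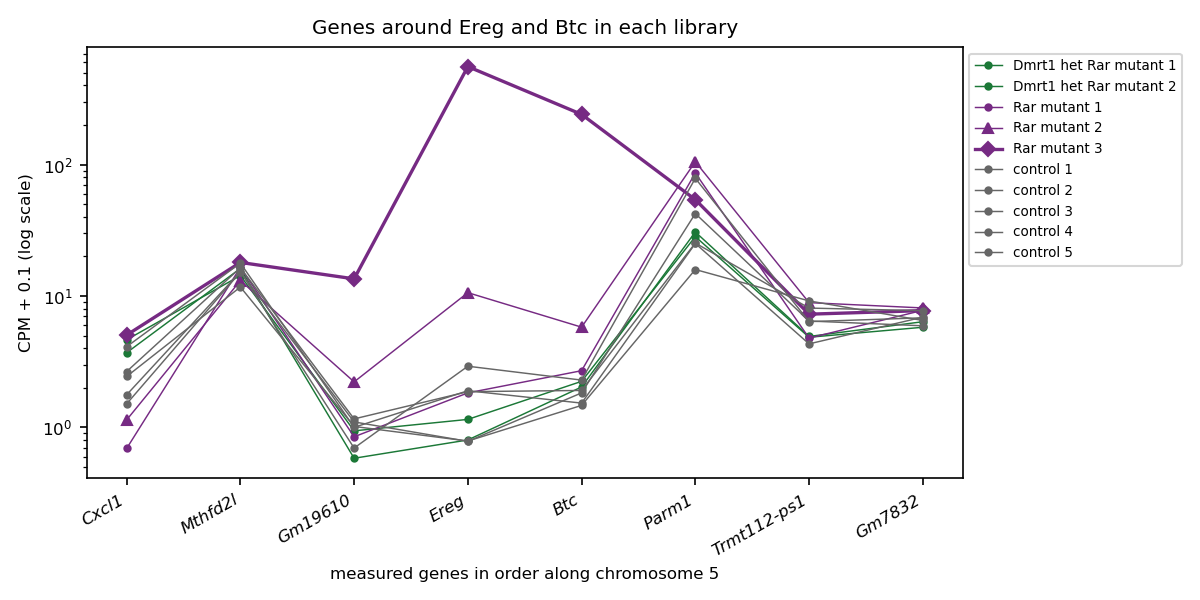
CPM plus 0.1, on a log axis, of the measured genes in their order along chromosome 5, 1 line per library. Rar mutant 3 (diamonds) leaves the other libraries at Gm19610 (13.4 CPM), Ereg (557 CPM) and Btc (241 CPM) and lies at 17.9 CPM for Mthfd2l and 54.0 CPM for Parm1, close to other libraries.

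The promoter of Btc is shown because Btc was the ligand whose Rar mutants all lay above the controls. Promoters of 300 bases, 250 before and 50 after the gene start, came from RefSeq (GRCm38.p6) and were found for 4 of the 8 measured members: Btc, Tgfa, Egfr and Erbb2. The sequence is chr5:91402945-91403244, minus strand, 5′ to 3′, with a match to the core of the cyclic AMP response element in capitals.
Btc: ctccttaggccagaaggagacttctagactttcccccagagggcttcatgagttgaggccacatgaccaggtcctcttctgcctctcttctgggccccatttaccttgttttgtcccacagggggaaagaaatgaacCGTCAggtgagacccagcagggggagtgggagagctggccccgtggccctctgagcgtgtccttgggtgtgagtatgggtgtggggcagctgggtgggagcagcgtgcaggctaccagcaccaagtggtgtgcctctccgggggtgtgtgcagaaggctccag
The match (TGACG on the other strand, CGTCA as printed) starts 113 bases before the gene start. Cyclic AMP is known as the messenger of luteinising hormone in granulosa cells. TGACG on either strand occurs in 20.8% of 32851 promoters of this length, so it is a common match. The Btc window held no full response element (TGACGTCA, in 1.79% of promoters), no AP-1 site (TGANTCA, 7.81%) and no NR5A1 site (CAAGGTCA, 1.56%, which contains AGGTCA). It also held no exact AGGTCA (16.3%), a form of the core of a retinoic acid response element. Only these exact letters were searched, so other forms of the sites were not looked for. The paired elements DR5 and DR2, each in 0.00913% of promoters, were also absent, as were TATAAA (13.6%), TTGCNNAA (10.8%), CACGTG (7.15%) and GGGCGG (35.7%). These letters describe the window and show nothing about binding.

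The genes whose pattern over the 10 libraries was most like that of Ereg were Nts, Ptgs2 and Btc. Their likeness distance, the root mean square difference of log2(CPM + 1) after each gene is centred on its mean, was 0.377, 0.519 and 0.634, against an SD of 2.56 for Ereg itself. Nts, which encodes neurotensin, had 13 and 10 counts in Dmrt1 het Rar mutants, 14, 264 and 11205 counts in Rar mutants and 5 to 18 counts in controls. For Btc (SD 2.02) the nearest were Ptgs2 at 0.393, Tnfaip6 at 0.416 and the pseudogene Gm11843 at 0.532. This likeness rests mainly on Rar mutant 3, the library in which each of these genes was highest, and it is given as a description over 10 libraries.

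Log2 fold changes of the other ligands in Rar mutants were smaller than those of Ereg and Btc. Tgfa encodes transforming growth factor alpha, an EGFR ligand (chromosome 6, 86195223 to 86275719, plus strand). It had 31.8 and 32.9 CPM in Dmrt1 het Rar mutants, 47.4, 33.8 and 22.1 CPM in Rar mutants and 49.3, 35.1, 14.2, 30.4 and 38.9 CPM in controls. The groups overlapped fully, and Rar mutant 3 was the lowest Rar mutant. Hbegf, heparin-binding EGF-like growth factor (chromosome 18, 36504927 to 36515805, minus strand), binds EGFR and ERBB4. Its levels were 8.75 and 8.47 CPM in Dmrt1 het Rar mutants, 4.09, 6.19 and 12.7 CPM in Rar mutants and 6.88, 3.70, 14.8, 6.26 and 7.72 CPM in controls. Here too the groups overlapped, with control 3 highest, and the Rar mutants stood in the order of Ereg. The log2 fold change in Rar mutants was 0.04 for Tgfa (SE 0.34, edgeR adjusted p = 0.985) and -0.04 for Hbegf (SE 0.44, adjusted p = 0.987), and the sign of each turned under other settings.

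Nrg1 encodes neuregulin 1, a ligand of ERBB3 and ERBB4 (chromosome 8, 31814551 to 32884029, minus strand). Its levels were 1.77 and 2.54 CPM in Dmrt1 het Rar mutants, 1.73, 1.04 and 8.67 CPM in Rar mutants and 1.72, 1.71, 2.02, 2.01 and 1.93 CPM in controls. The controls lay close together, Rar mutant 3 (202 counts) was 4.62-fold their mean, and Rar mutant 2 (25 counts) was below all of them. In contrast to Ereg and Btc, Rar mutant 2 did not share the high level of Rar mutant 3. The log2 fold change in Rar mutants was 1.02 (SE 0.54, edgeR adjusted p = 0.616) and, without Rar mutant 3, it turned to -0.44.

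The make-up of the ligands that bind EGFR is shown by their share of the summed FPKM of Tgfa, Hbegf, Ereg, Btc and Egf. Ereg and Btc together made up 7.71% and 6.40% in Dmrt1 het Rar mutants, 9.83%, 32.4% and 95.5% in Rar mutants 1, 2 and 3, and 5.22% to 14.1% in controls. Tgfa and Hbegf together held 4.44% in Rar mutant 3, against 84.3% to 93.9% in controls, and Egf held at most 1.72% in any library. The sum of the 5 ligands was 9.39 and 9.25 FPKM in Dmrt1 het Rar mutants, 10.1, 11.6 and 199 FPKM in Rar mutants and 8.19 to 11.3 FPKM in controls. The 3 receptors together stayed between 9.28 and 13.4 FPKM in all 10 libraries. Rar mutant 3 was therefore the library in which ligand and receptor transcripts stood furthest apart, and its receptor sum of 11.4 FPKM was among those of the other libraries. Amphiregulin is not in these sums.

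**Figure D3:**
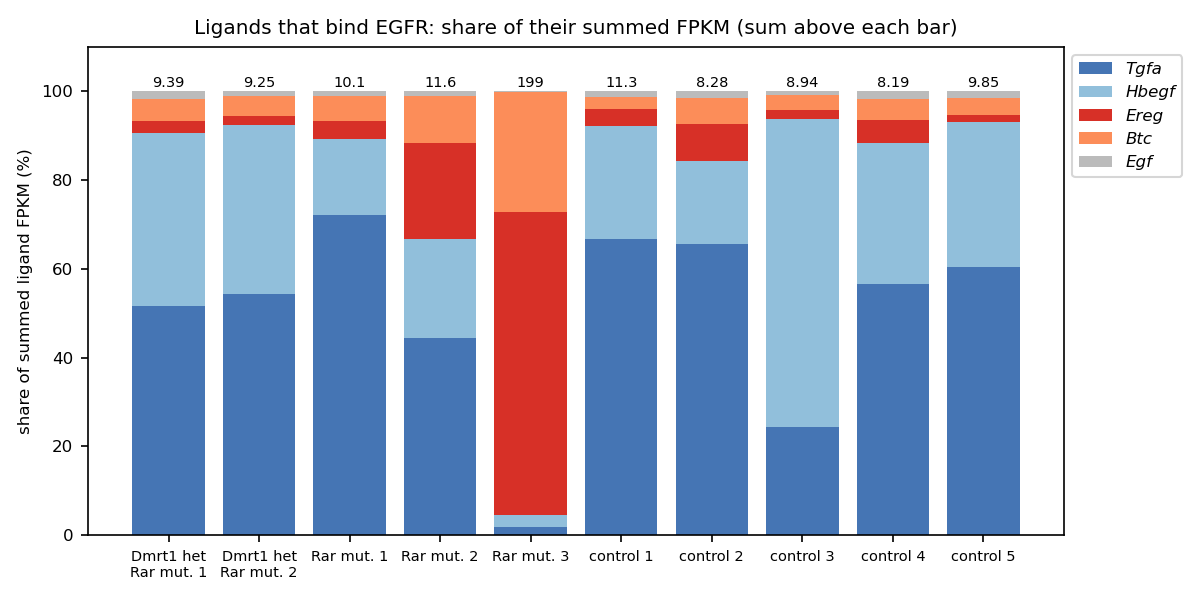
Share of the summed FPKM of 5 EGFR ligands held by each, as 1 stacked bar per library, with the sum in FPKM above the bar. Ereg and Btc hold 95.5% of 199 FPKM in Rar mutant 3 and 32.4% in Rar mutant 2, against 5.22% to 14.1% in controls.

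Among the receptors, Erbb2 lay lower in Rar-deleted ovaries and Egfr was higher on average, without either passing the edgeR test. Erbb2 encodes the receptor without a ligand, the shared partner of the family (chromosome 11, 98412470 to 98437716, plus strand, ENSMUSG00000062312). It had 25.7 and 22.5 CPM in Dmrt1 het Rar mutants, 17.5, 26.99 and 25.6 CPM in Rar mutants and 28.6, 36.3, 30.3, 38.9 and 40.1 CPM in controls. All 5 Rar-deleted libraries lay below all 5 controls. The same order held on both sides of the title number 7800: under it, 25.7, 22.5 and 17.5 CPM in Rar-deleted ovaries against 28.6 CPM in the 1 control, and above it 26.99 and 25.6 CPM in Rar mutants against 30.3 to 40.1 CPM in controls. Log2 fold changes against controls were, for all 5 Rar-deleted ovaries, -0.55 (SE 0.15, edgeR adjusted p = 0.374), for Rar mutants -0.58 (SE 0.18, adjusted p = 0.299) and for Dmrt1 het Rar mutants -0.53 (SE 0.21, adjusted p = 0.257). The Dmrt1 het value was -0.16 (adjusted p = 0.887) with the title number as a term. Without Rar mutant 3 the Rar mutant value was -0.66.

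Egfr encodes the receptor of Ereg, Btc, Tgfa and Hbegf (chromosome 11, 16752203 to 16918158, plus strand, ENSMUSG00000020122). It had 74.2 and 63.3 CPM in Dmrt1 het Rar mutants, 58.9, 74.9 and 65.7 CPM in Rar mutants and 64.5, 57.9, 53.8, 42.1 and 49.0 CPM in controls. The groups overlapped, with 5 of 5 Rar-deleted libraries above the control mean. Log2 fold changes against controls were, for all Rar-deleted ovaries, 0.34 (SE 0.14, edgeR adjusted p = 0.5676), for Rar mutants 0.32 (SE 0.15, adjusted p = 0.571) and for Dmrt1 het Rar mutants 0.36 (SE 0.18, adjusted p = 0.306). Limma voom with sample weights called both receptors in Dmrt1 het Rar mutants (Egfr 0.45, adjusted p = 0.0142, and Erbb2 -0.65, adjusted p = 0.00312) and in all Rar-deleted ovaries (Egfr 0.42, adjusted p = 0.0250, and Erbb2 -0.70, adjusted p = 0.00854). That method called 36.6% and 26.3% of all genes in these comparisons, where edgeR called 0.0194% and 0.111%. Set against each other within a library, the ratio of Erbb2 to Egfr in FPKM was 0.753 and 0.771 in Dmrt1 het Rar mutants, 0.647, 0.783 and 0.848 in Rar mutants and 0.963, 1.36, 1.23, 2.01 and 1.78 in controls. This ratio was chosen after the levels were seen, so it is given without a test.

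The promoters of Egfr and Erbb2 are shown because these genes differed in opposite directions. Egfr is chr11:16751953-16752252 and Erbb2 is chr11:98412234-98412533, both plus strand, with the GC box (GGGCGG on either strand) in capitals for Egfr and the TGACG core, printed as CGTCA, in capitals for Erbb2.
Egfr: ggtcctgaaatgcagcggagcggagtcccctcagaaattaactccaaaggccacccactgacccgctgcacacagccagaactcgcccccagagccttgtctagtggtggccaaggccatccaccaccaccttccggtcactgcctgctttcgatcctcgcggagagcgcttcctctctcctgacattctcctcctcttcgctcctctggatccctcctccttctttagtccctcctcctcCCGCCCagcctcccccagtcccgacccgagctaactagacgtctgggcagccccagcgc
Erbb2: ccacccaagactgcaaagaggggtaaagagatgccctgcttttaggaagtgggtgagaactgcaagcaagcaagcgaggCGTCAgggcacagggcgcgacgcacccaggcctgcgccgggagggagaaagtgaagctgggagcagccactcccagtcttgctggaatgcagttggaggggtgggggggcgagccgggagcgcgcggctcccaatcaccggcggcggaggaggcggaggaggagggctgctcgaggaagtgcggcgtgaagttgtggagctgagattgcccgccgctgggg
The GC box of Egfr starts 9 bases before the gene start and the core of Erbb2 starts 171 bases before it. Neither window held the exact letters AGGTCA or TGACGTCA, and so neither held DR5 or DR2 as pairs of AGGTCA. Other forms of these sites were not looked for. GC content was 62.3% for Egfr and 66.0% for Erbb2, against a median of 52.7% over all promoters.

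Erbb3, the receptor of neuregulins (chromosome 10, 128567523 to 128589652, minus strand), lay lower in Rar mutants. Its levels were 5.76 and 5.44 CPM in Dmrt1 het Rar mutants, 4.21, 4.11 and 3.13 CPM in Rar mutants and 4.59, 7.55, 4.90, 5.82 and 6.03 CPM in controls. All 3 Rar mutants lay below all controls, while the Dmrt1 het Rar mutants lay within the control range. Against controls Erbb3 was at -0.60 in Rar mutants on the log2 scale (SE 0.22, edgeR adjusted p = 0.382), -0.05 in Dmrt1 het Rar mutants (SE 0.24, adjusted p = 0.934) and 0.55 between the mutant groups (SE 0.26, adjusted p = 0.314), so no difference between them was called. With Btc and Erbb2, Erbb3 made 3 of 8 members whose Rar mutants did not overlap the controls, where 5.14% of all genes did not. In Dmrt1 het Rar mutants against controls this was 1 of 8 members (Erbb2) and 28.4% of genes, and in all Rar-deleted ovaries against controls again 1 of 8 (Erbb2) and 1.76% of genes.

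Over those last comparisons edgeR and DESeq2 each called 0 of the members they gave a p for, while DESeq2 called 1.36% of genes in Dmrt1 het Rar mutants and 0.745% in all Rar-deleted ovaries. An unadjusted edgeR p under 0.05 was reached in Dmrt1 het Rar mutants by 1 of 8 members (Erbb2) and 17.3% of genes, and in all Rar-deleted ovaries by 4 of 8 (Ereg, Btc, Egfr and Erbb2) and 8.47% of genes. The authors' deposited table of differential expression between Rar mutants and controls lists 185 genes, and 0 of them belong to the EGF family. The submitters' notes name DESeq2, and the DESeq2 fit made here gave Ereg and Btc no p in that comparison. Whether Ereg and Btc could have entered the authors' list was not tested, so no conclusion is drawn from their absence.

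**Figure D4:**
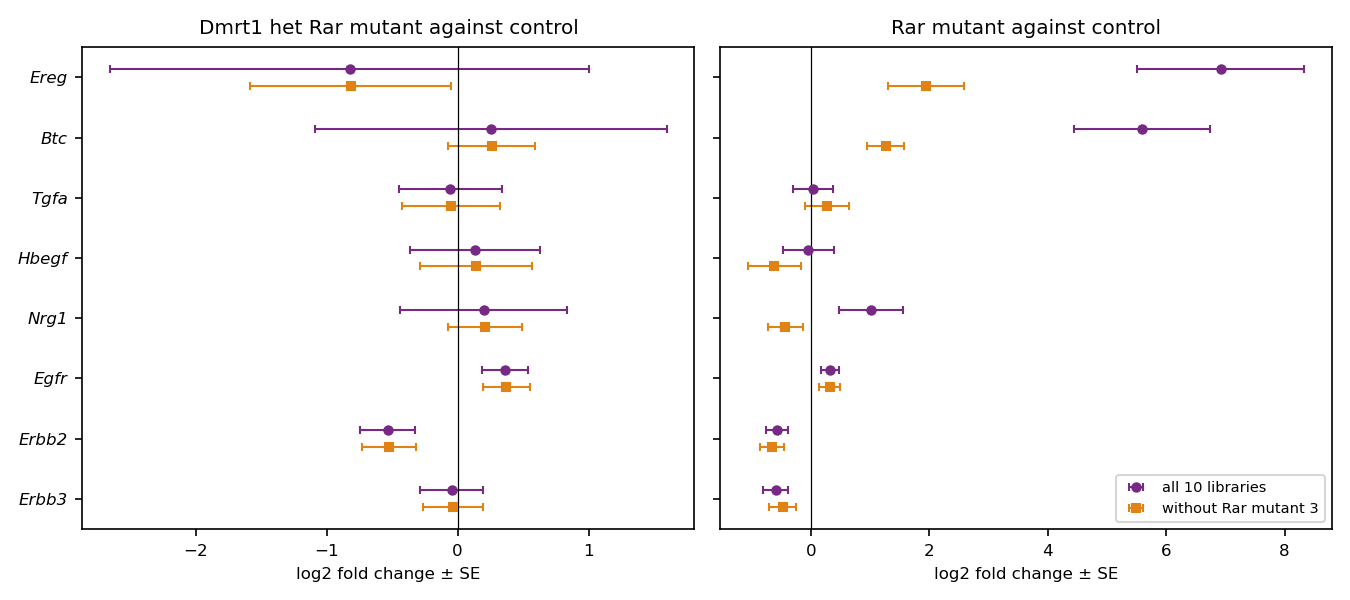
Log2 fold change against control ± SE from edgeR, for Dmrt1 het Rar mutants (left) and Rar mutants (right, a wider axis), with all 10 libraries and without Rar mutant 3. Leaving it out takes Ereg to 1.94 and Btc to 1.26 and turns Nrg1 to -0.44 in Rar mutants, while Egfr, Erbb2 and Erbb3 keep their side of 0.

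Markers of epithelium were also read, from 2 lists. The 6 markers of oviduct and other epithelium summed to 12.4 and 14.04 CPM in Dmrt1 het Rar mutants, 15.4, 14.6 and 43.6 CPM in Rar mutants 1, 2 and 3, and 26.9 to 63.8 CPM in controls. The high sum of Rar mutant 3 came from Ovgp1, an oviduct glycoprotein gene, which had 1.77 and 4.39 CPM in Dmrt1 het Rar mutants, 4.37, 1.87 and 31.3 CPM in Rar mutants and 1.39 to 2.36 CPM in controls. The other 5 genes of that list summed to 10.7 and 9.65 CPM in Dmrt1 het Rar mutants, 10.98, 12.7 and 12.4 CPM in Rar mutants and 25.2 to 62.4 CPM in controls. Without Ovgp1, which was set apart after its values were seen, all 5 Rar-deleted libraries lay below all controls. Over single genes, 1.76% did not overlap in that comparison, in either direction. Epcam and Cdh1 made up most of this sum, with control means of 24.9 and 15.5 CPM. Those of Foxj1, Wfdc2 and Pax8 were 0.323, 0.983 and 0.602 CPM, and Foxj1 averaged higher in Rar mutants, at 0.736 CPM. In Rar mutants edgeR called 0 of the 6, with 3 lower and 1 higher at an unadjusted p under 0.05. The authors' deposited table of that comparison lists Epcam at -1.53 on the log2 scale (authors' adjusted p = 4.5e-05), Cdh1 at -1.30 (0.000311) and Ovgp1 at 1.33 (0.00400). Epcam had 1.14 and 2.15 CPM in Dmrt1 het Rar mutants, 4.77 to 6.52 CPM in Rar mutants and 12.8 to 39.0 CPM in controls. The 8 surface epithelium markers summed to 134 and 162 CPM in Dmrt1 het Rar mutants, 206, 355 and 406 CPM in Rar mutants and 218 to 497 CPM in controls, so Rar mutants 2 and 3 lay within the control range. No marker of either list was at 0 in any library. Schwann cell markers, from cells that use ERBB3, summed to 68.4 and 79.2 CPM in Dmrt1 het Rar mutants, 38.7 to 58.0 CPM in Rar mutants and 52.4 to 82.3 CPM in controls, over 5 measured genes of which Sox10 was at 0 in at least 1 library. Their part in the Erbb2 and Erbb3 levels was not tested.

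Among the other genes of the family, Egf, the founding ligand, had 1.43 ± 0.413 CPM in Dmrt1 het Rar mutants, 1.14 ± 0.108 CPM in Rar mutants and 1.41 ± 0.284 CPM in controls (SD, n = 2, 3 and 5), and the neuregulin Nrg4 had 3.32 and 3.38 CPM in Dmrt1 het Rar mutants, 1.496, 2.62 and 4.16 CPM in Rar mutants and 1.92 to 3.38 CPM in controls. Rar mutant 3 was the highest library for Nrg4 and Rar mutant 1 the lowest. Nrg2, a neuregulin, had 1.598 and 2.06 CPM in Dmrt1 het Rar mutants, 3.74, 2.08 and 4.46 CPM in Rar mutants and 3.52 to 4.14 CPM in controls. Both Dmrt1 het Rar mutants lay below every control and every Rar mutant, with a log2 fold change against controls of -1.04 (SE 0.31, edgeR adjusted p = 0.243). Nrg3 was under the count filter, with 0 and 2 counts in Dmrt1 het Rar mutants, 2, 5 and 26 counts in Rar mutants and 2 to 8 counts in controls. Erbb4, a receptor of Ereg, Btc, Hbegf and the neuregulins, had 2 and 3 counts in Dmrt1 het Rar mutants, 4 to 11 counts in Rar mutants and 0 to 14 counts in controls, near the floor of detection. Of the 4 tested genes of this list edgeR called 0 in Rar mutants, 0 had an unadjusted p under 0.05, and the median log2 fold change was -0.09, against -0.02 over all genes.

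The steps before the ligands in the follicle were read from 9 genes. In Rar mutants edgeR called 0, with 3 higher at an unadjusted p under 0.05 (Adcyap1, Pgr and Ptger4), and the median log2 fold change was 0.67, against -0.02 over all genes. Without Rar mutant 3 that median was 0.24, and Ptger4, a prostaglandin receptor, was at 0.24 in place of 0.86. Adcyap1 encodes PACAP, a peptide that raises cyclic AMP in granulosa cells. It had 0.210 and 0.746 CPM in Dmrt1 het Rar mutants, 8.23, 67.7 and 424 CPM in Rar mutants 1, 2 and 3, and 1.19, 2.03, 0, 1.14 and 0.925 CPM in controls. All 3 Rar mutants lay above all controls, in the order of Ereg and Btc, with a log2 fold change of 7.28 (SE 1.11, edgeR adjusted p = 0.0557) that was 5.13 (adjusted p = 0.212) without Rar mutant 3. Pgr, the progesterone receptor that luteinising hormone induces in granulosa cells, had 2.48 and 1.54 CPM in Dmrt1 het Rar mutants, 2.17, 1.37 and 133 CPM in Rar mutants and 1.07 to 2.11 CPM in controls. For Pgr the log2 fold change was 4.93 (adjusted p = 0.155) and 0.24 without Rar mutant 3, and the other 2 Rar mutants lay at or near the control range. Lhcgr, the receptor of luteinising hormone, had 235 and 410 CPM in Dmrt1 het Rar mutants, 396, 82.4 and 170 CPM in Rar mutants and 171 to 713 CPM in controls.

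Genes that EGFR signalling is known to switch on in cumulus cells were read from a list of 6, which also holds the pair Nppc and Npr2 of meiotic arrest. In Rar mutants edgeR called 0, with 4 higher (Ptgs2, Tnfaip6, Has2 and Ptx3) and 2 lower (Nppc and Npr2) at an unadjusted p under 0.05, and the median log2 fold change was 3.09. Without Rar mutant 3 the median was 0.30, against -0.01 over all genes, with 2 higher and 2 lower at an unadjusted p under 0.05. Ptgs2, the inducible prostaglandin synthase, had 1.35 and 0.702 CPM in Dmrt1 het Rar mutants, 0.315, 4.07 and 209 CPM in Rar mutants and 0.121 to 0.737 CPM in controls. Has2, which makes the hyaluronan of the cumulus matrix, had 0.967 and 0.439 CPM in Dmrt1 het Rar mutants, 0.945, 0.498 and 7.94 CPM in Rar mutants and 0.137 to 0.477 CPM in controls. In CPM, Has2 thus lay above all controls in every Rar mutant, as 5.14% of all genes did not overlap in that comparison. The lowest Rar mutant and the highest control both had 12 counts, so in counts they were level. Tnfaip6, whose product links proteins to hyaluronan, had 1.85 and 0.833 CPM in Dmrt1 het Rar mutants, 1.14, 5.44 and 195 CPM in Rar mutants and 0.442 to 2.75 CPM in controls. The log2 fold changes were 7.42 for Ptgs2 (SE 1.51, edgeR adjusted p = 0.105), 5.96 for Tnfaip6 (SE 1.31, adjusted p = 0.123) and 3.31 for Has2 (SE 0.79, adjusted p = 0.157). Without Rar mutant 3 they were 2.38, 1.59 and 1.20. Ptx3, which encodes the matrix protein pentraxin 3, had 1.35 and 1.84 CPM in Dmrt1 het Rar mutants, 1.34, 2.24 and 75.6 CPM in Rar mutants and 2.64 to 5.41 CPM in controls. It was high in Rar mutant 3 and below every control in the other Rar-deleted libraries, and its log2 fold change of 2.86 (adjusted p = 0.348) turned to -1.03 (adjusted p = 0.539) without Rar mutant 3. Nppc and Npr2, a peptide and its receptor that hold the oocyte in meiotic arrest, were at -0.73 (adjusted p = 0.498) and -0.41 (adjusted p = 0.519).

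**Figure D5:**
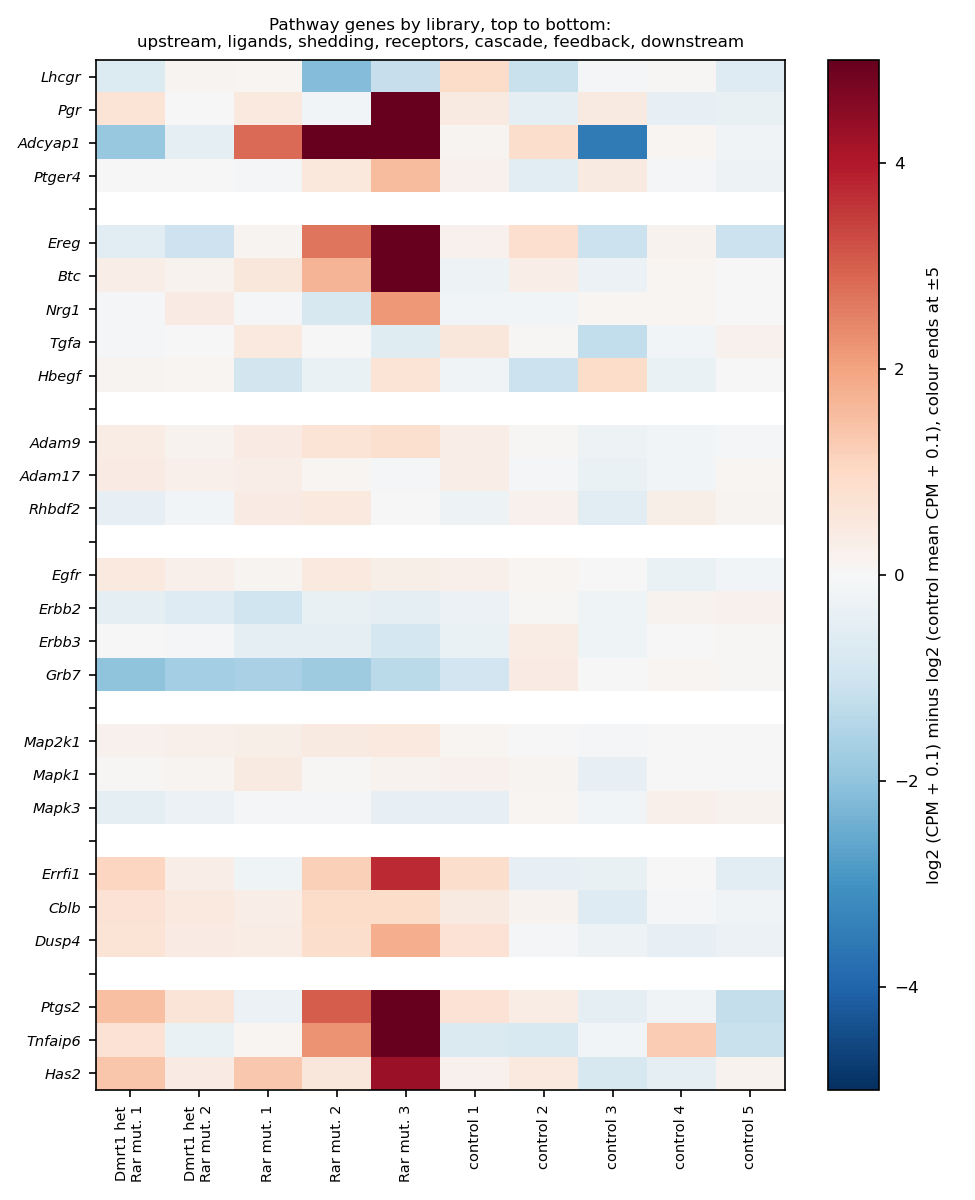
Log2(CPM + 0.1) of genes of the EGFR pathway in each library, minus the log2 of the control mean CPM + 0.1, with colours ending at ±5; rows run from upstream genes over ligands, shedding, receptors (with Grb7), cascade and feedback to downstream genes. Rar mutant 3 is dark red for Adcyap1, Pgr, Ereg, Btc, Ptgs2 and Tnfaip6, Rar mutant 2 is red for Adcyap1, Ereg, Btc, Ptgs2 and Tnfaip6, and Grb7 is blue in all 5 Rar-deleted libraries and in control 1.

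Between ligand and response, the list of 6 ligand-shedding genes had 0 called in Rar mutants by edgeR, 1 higher at an unadjusted p under 0.05 and a median log2 fold change of 0.14. That gene was Adam9, a membrane metalloprotease, with 63.2 and 55.9 CPM in Dmrt1 het Rar mutants, 65.5, 79.3 and 86.3 CPM in Rar mutants and 40.7 to 62.5 CPM in controls (log2 fold change in Rar mutants 0.65, SE 0.16, edgeR adjusted p = 0.157). All 3 Rar mutants lay above all controls. Adam17, the main sheddase of these ligands, was at 0.11 (adjusted p = 0.904). Of 10 genes of the Ras-ERK cascade edgeR called 0, and Map2k1, the kinase MEK1, was the 1 gene with an unadjusted p under 0.05. It had 90.3 and 92.3 CPM in Dmrt1 het Rar mutants, 93.6, 105.5 and 109.5 CPM in Rar mutants and 71.5 to 82.1 CPM in controls, giving 0.41 on the log2 scale (SE 0.11, adjusted p = 0.193). The median of the cascade list was 0.08.

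Feedback inhibitors are induced by EGFR signalling and damp it. Of 15 such genes edgeR called 0 in Rar mutants, 3 were higher at an unadjusted p under 0.05 (Errfi1, Cblb and Dusp4), and the median log2 fold change was 0.19. Errfi1, whose product binds and blocks the kinase of EGFR, had 73.3 and 43.7 CPM in Dmrt1 het Rar mutants, 30.3, 79.8 and 468 CPM in Rar mutants and 23.4 to 63.9 CPM in controls. It followed the order of Ereg in the Rar mutants, with a log2 fold change of 2.46 (SE 0.68, edgeR adjusted p = 0.221) that was 0.63 without Rar mutant 3. Cblb, a ubiquitin ligase of receptors, was at 0.76 (adjusted p = 0.263) and Dusp4, a phosphatase of MAP kinases, at 1.18 (adjusted p = 0.280), or 0.65 without Rar mutant 3.

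Of 10 adaptors and effectors of the receptors, Grb7 was the gene that passed the test. Grb7 binds ERBB2 and other receptors, and its gene lies 8.68 kb from Erbb2 and 472 kb from the floxed Rara on chromosome 11 (98446394 to 98455373, plus strand, ENSMUSG00000019312). It had 0.505 and 0.658 CPM in Dmrt1 het Rar mutants, 0.709, 0.623 and 0.859 CPM in Rar mutants and 1.19, 3.22, 2.38, 2.56 and 2.49 CPM in controls. All 5 Rar-deleted libraries lay below all 5 controls, as for Erbb2 next to it. Grb7 fell in all Rar-deleted ovaries together, with a log2 fold change of -1.81 (SE 0.28, edgeR adjusted p = 0.0414), and was the 1 called gene of this list, where 0.111% of all genes were called. Leaving out any library other than control 1 ended the call, with adjusted p from 0.0133 (without control 1) to 0.144 (without control 5), as did the title number as a term (-1.52, adjusted p = 0.0652) and the 6 libraries of higher number alone (-1.84, adjusted p = 0.0529). In Rar mutants alone it was at -1.69 (SE 0.35, adjusted p = 0.105). The authors' deposited table lists Grb7 in Rar mutants at -1.21 on the log2 scale (SE 0.28, adjusted p = 0.00332). Erbb2 itself lies 490.1 kb from Rara. Floxed Rara was in all groups and Cre in the mutants only, and a part of the Rara locus in the Grb7 and Erbb2 levels was not tested. The 6 markers of oviduct and other epithelium summed below every control in 4 of these 5 libraries, and the 8 surface epithelium markers in 3 of 5, and their part in the Grb7 level was not tested.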

How the data were processed

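The authors deposited raw counts per gene, 24306 genes in 10 libraries, and FPKM. The tools that the submitters' processing notes name are Trimmomatic 0.32, STAR 2.4.2a, SAMtools 1.0 and DESeq2 1.12.3, with GRCm38 (mm10) as the build. How reads were counted, and with which strand setting, is not given in the sources used here. The ratio of count to deposited FPKM matched median-of-ratios size factors in each library. From the authors' deposited list of differential genes, the log2 fold change, its SE and the adjusted p-value were read, and its Wald score was left aside.

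Counts were tested in R 4.3.3 with edgeR 4.0.16 (quasi-likelihood test, TMM, filterByExpr), two-sided, with Benjamini-Hochberg adjustment over all tested genes at 0.05. One fit held the 3 groups (20570 genes), and another set all 5 Rar-deleted libraries against 5 controls (18954 genes), since the series' design text gives 5 replicates for each of 2 genotypes. The SE of a log2 fold change is its size over the root of F, an approximation. CPM are counts over TMM-scaled library sizes. Alternatives were DESeq2 1.42.0, limma 3.58.1 (voom with sample quality weights), another scaling, no filter, a title-number term, a replicate block and leaving out each library. The script was tested on simulated data, and no libraries of a group were duplicates. The members and gene lists were chosen with earlier results of these data known. Named genes were the members, the other family genes, the targeted genes, the called or else the 3 smallest-p genes of each pathway list in Rar mutants, the chromosome 5 neighbours, and the 3 nearest genes to a member whose log2 CPM had an SD of 1 or more. Ptx3, Nppc, Npr2, Epcam, Ovgp1 and the single adrenal cortex markers were named after their values were seen. Gene positions are from GENCODE M21.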

Additional observations from a re-analysis of the deposited data

Results flagged for a closer look

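Ereg lay above the control mean of 1.55 CPM in all 3 Rar mutants (1.73, 10.5 and 557 CPM) and below it in both Dmrt1 het Rar mutants (1.05 and 0.702 CPM). The fitted difference of Dmrt1 het Rar mutants against Rar mutants was -7.75 on the log2 scale, with an edgeR adjusted p of 0.207, so this opposite placing did not pass the test of the difference itself. Across the other settings the difference ran from -8.33 to -2.16, with adjusted p from 0.0478 to 0.745.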

How the results depend on the processing

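Of 584 member fold changes recomputed under other settings, 526 kept their direction and side of the threshold, 51 reversed, 7 came to pass it and 0 ceased to.

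In Rar mutants against controls, Hbegf turned to 0.050 with voom and 0.22 in libraries of title number 7800 or more, Tgfa to -0.092 with voom, -0.078 with the title term and -0.091 in the higher numbers, and Nrg1 to -0.11 with voom and -0.52 with the title term and no Rar mutant 3 (a setting chosen after seeing the data). Leaving out each library gave -0.62 to 0.31 for Hbegf, -0.27 to 0.27 for Tgfa and -0.44 to 1.47 for Nrg1.

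In Dmrt1 het Rar mutants against controls, Ereg turned to 1.24 and Erbb3 to 0.049 with the title term, and Erbb3 to 0.14 without Rar mutant 3 as well. Leaving out each library gave -0.12 to 0.069 for Erbb3, -0.25 to 0.12 for Tgfa, -0.078 to 0.45 for Nrg1 and -0.051 to 0.49 for Hbegf.

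In Dmrt1 het Rar mutants against Rar mutants, Nrg1 turned to 0.27 with voom, 0.18 with the replicate block and 0.56 with the title term and no Rar mutant 3. Egfr turned to -0.037 with voom, -0.014 with the title term and -0.0060 with the title term and no Rar mutant 3, and Erbb2 to -0.058 with voom. Leaving out each library gave -1.27 to 0.64 for Nrg1, -0.072 to 0.16 for Egfr, -0.13 to 0.16 for Erbb2, -0.13 to 0.76 for Hbegf and -0.32 to 0.21 for Tgfa.

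In all Rar-deleted ovaries, Tgfa turned to -0.031 with voom, -0.20 with the title term, -0.091 in the higher numbers and -0.11 with the title term and no Rar mutant 3, where Hbegf was at -0.19 and Nrg1 at -0.33. Leaving out each library gave -0.19 to 0.19 for Tgfa, -0.19 to 0.39 for Hbegf and -0.078 to 0.97 for Nrg1.

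Genes called in Rar mutants numbered 2, against 372 with DESeq2, 203 with voom, 85 with the title term, 1 in a fit of the 2 groups alone, 142 in the higher numbers and 1 to 384 leaving out each library. In Dmrt1 het Rar mutants 4 were called, against 329 with DESeq2, 7534 with voom, 1 with the title term, 0 with the replicate block, 0 with the title term and no Rar mutant 3, and 0 to 364 leaving out each library. Between the mutant groups 0 were called, against 626 with DESeq2, 4394 with voom and 0 to 335 leaving out each library. In all Rar-deleted ovaries 21 were called, against 180 with DESeq2, 4994 with voom, 40 with the title term, 0 with the replicate block, 142 in the higher numbers, 2 with the title term and no Rar mutant 3, and 5 to 52 leaving out each library. The cause was not tested. Members called numbered 2 with voom in Dmrt1 het Rar mutants and 2 with voom in all Rar-deleted ovaries, and, leaving out each library, 0 to 2 in Rar mutants against controls and 0 to 1 between the mutant groups.

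Replicate numbers were not taken as pairs, since the deviations of same-numbered Rar mutant and control libraries correlated at 0.465, 0.0296 and 0.271, those of Dmrt1 het Rar mutants and controls at 0.0811 and 0.13, and those of the mutant groups at -0.11 and -0.0366. With the replicate block Ereg was at 3.16 (edgeR adjusted p = 0.763) and Btc at 2.93 (adjusted p = 0.728) in Rar mutants. Depth limits Nrg3 and Erbb4, which had 0 to 26 counts per library.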
